A study of Mus musculus with 8 samples.

Results

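The respiratory chain of the mitochondrial inner membrane was followed in NMuMG cells, an untransformed mouse mammary gland epithelial line that can pass from an epithelial to a mesenchymal state, through its nuclear-encoded subunit genes. The genes were chosen by symbol alone, as those named Ndufa, Ndufb, Ndufc, Ndufs or Ndufv with a number, Sdha to Sdhd, Uqcr, Cox4 to Cox8 with a letter from a to c, and Atp5. Only probe sets with 1 gene symbol entered, and where a gene had several, its brightest one was taken. This gave 79 of the 19937 genes measured, with 35 in complex I, 4 in complex II, 8 in complex III, 15 in complex IV and 17 in complex V. Under this rule the symbol decided which genes entered, and the measured brightness chose only which probe set stood for a gene. The rule itself, like the gene lists used below, was set with earlier results of these data known. Cox7c and Ndufb4 were not among them, since their probe sets carry the symbol of a further gene. The rule also leaves out by spelling some true subunits, Cox4i1, Cyc1 and Ndufab1 among them.

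Total RNA was hybridised to 8 whole-transcript arrays in 4 groups of 2. Either a control siRNA (siControl) or a pool of siRNAs against Klf4, a zinc finger transcription factor (siKlf4), had been introduced into the cells, which were then kept without TGFβ or given 2 ng/ml of it for 2 days. All arrays come from one cell line, of which the study used a subclone, and transfection was transient. Values are log2 values made by Robust Multi-Array (RMA), a background correction, quantile normalization and summary per probe set. They are comparable between arrays for 1 gene. Brightness also depends on the probes, so it was used to sort probe sets into bright and dim and not to rank genes by their expression. The sources do not say if both arrays of a group stem from different cultures, and p-values therefore rest on the spread between arrays, part or all of which may be technical.

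The arrays were alike in overall level, with medians between 4.902 and 5.002 on the log2 scale and a correlation between replicates of 0.992 to 0.995. Klf4 differed by −0.54 ± 0.10 (log2 difference ± SE, n = 2 and 2) between siKlf4 and siControl arrays without TGFβ (limma adjusted p = 0.00370). With TGFβ the difference was −0.13 ± 0.10 (limma adjusted p = 0.444). Klf4 had log2 values of 8.60 and 8.43 in siControl and 7.46 and 7.46 in siControl TGFβ arrays, a fall of 1.05 ± 0.10 (limma adjusted p = 3.57e-04) that exceeded the one under the siKlf4 label. Of 7 measured genes that TGFβ is known to induce, none was called higher and 2 were called lower in siControl arrays labelled TGFβ than in those without it. Within the siKlf4 arrays, 2 of the 7 were called higher and 0 lower with the TGFβ label. Between siKlf4 and siControl arrays, 6 were called higher under the siKlf4 label in either condition. The groups are therefore named by their labels throughout, and every direction holds for the arrays as labelled. Of 6 epithelial markers, 2 were called higher and 1 lower in either siKlf4 comparison. The keratins Krt8 and Krt18, at log2 values of 12.18 to 13.42 over all arrays, rose by 0.30 ± 0.07 and 0.54 ± 0.08 without TGFβ (limma adjusted p = 0.0195 and 8.46e-04) and by 0.36 ± 0.07 and 0.55 ± 0.08 with it (limma adjusted p = 0.00615 and 5.61e-04). Ocln, a tight junction protein, fell by 0.83 ± 0.12 and 0.81 ± 0.12 (limma adjusted p = 8.40e-04 and 7.47e-04). Cdh1, Cldn3 and Epcam were not called, and Epcam lay below the median of each array (3.88 to 4.09). The part of these markers in the results below was not tested. Of 9 measured markers of blood, endothelial and fat cells none was called in either siKlf4 comparison. Of 3 muscle markers Acta1, a muscle actin, rose by 1.75 ± 0.10 without TGFβ and by 2.52 ± 0.10 with it (limma adjusted p = 4.52e-06 and 4.88e-07), and its part in the results below was not tested.

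The respiratory chain passes electrons from NADH (complex I) or succinate (complex II) through ubiquinone, complex III and cytochrome c to oxygen (complex IV). Complexes I, III and IV pump protons across the inner membrane, and ATP synthase, complex V, uses the returning protons to make ATP. Complex II, which is also an enzyme of the citric acid cycle, is built from nuclear genes alone, while the other complexes join nuclear subunits with some encoded by mitochondrial DNA. The nuclear genes are transcribed in part under NRF1 and the ETS factor GABP, and housekeeping subunits are expressed in nearly all cells.

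The promoters of the subunit genes were read first, because Klf4 binds GC-rich and CACCC-type DNA and the other factors have short recognised sites. RefSeq promoter sequences (GRCm38.p6) were given for 66 of the 79 genes, and the 250 bases before the gene start were searched on both strands for GCGCATGCG (NRF1), CCGGAAG (ETS and GABP), AAGATGGC (YY1) and GGGNGTGG (a Klf family site), none of which contains another. The NRF1 site stood in 6 of 66 subunit genes (9.09%), beside 2.38% of the 15613 tested genes with a promoter and 1.64% of all 27025 genes with one. The ETS site stood in 12 (18.2%), beside 10.7% of tested genes and 7.83% of all. YY1 letters were found in 1 gene (1.52%), beside 1.85% of tested genes and 1.83% of all. The Klf letters were found in 12 (18.2%), beside 21.2% of tested genes and 17.9% of all. Among the 26 genes with a promoter that were called lower in either siKlf4 comparison (below), 3 held the NRF1 letters, 4 the ETS letters, 3 the Klf letters and 0 the YY1 letters. Among the 40 called in neither, the counts were 3, 8, 9 and 1. These are matches of letters and not binding sites.

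Of the subunit genes called lower, 9 held at least 1 of these motifs, and the stretch around each match is shown because it lets the sites be compared by eye between complexes. Each runs 5′ to 3′ on the strand of its gene, with 40 bases on either side of the matches where the 250 bases allow it, and capitals mark the matched letters on either strand. In complex I, Ndufa8 (chr2:36049339-36049387, minus strand) holds the NRF1 letters, Ndufb6 (chr4:40279607-40279671, minus strand) the ETS letters, and Ndufb7 (chr8:83566536-83566757, plus strand) a Klf and an ETS match.
Ndufa8: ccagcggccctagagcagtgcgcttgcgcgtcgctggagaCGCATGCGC
Ndufb6: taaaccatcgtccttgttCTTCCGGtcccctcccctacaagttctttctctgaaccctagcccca
Ndufb7: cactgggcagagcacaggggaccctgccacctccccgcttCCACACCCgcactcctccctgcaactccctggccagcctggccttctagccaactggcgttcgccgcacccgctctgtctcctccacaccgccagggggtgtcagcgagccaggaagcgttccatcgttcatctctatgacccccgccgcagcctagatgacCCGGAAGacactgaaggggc
In complex II, Sdhd (chr9:50603850-50603935, minus strand) holds the ETS letters, and in complex III, Uqcrfs1 (chr13:30545366-30545453, minus strand) holds the Klf letters.
Sdhd: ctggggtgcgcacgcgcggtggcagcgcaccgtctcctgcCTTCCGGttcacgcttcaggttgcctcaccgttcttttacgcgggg
Uqcrfs1: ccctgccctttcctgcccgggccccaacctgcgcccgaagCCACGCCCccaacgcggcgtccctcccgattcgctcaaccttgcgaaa
In complex V, Atp5e (chr2:174464157-174464243, minus strand) holds the ETS letters, Atp5j2 (chr5:145191703-145191790, minus strand) the Klf letters, and Atp5g2 (chr15:102671048-102671129, minus strand) and Atp5k (chr5:108434400-108434489, minus strand) the NRF1 letters.
Atp5e: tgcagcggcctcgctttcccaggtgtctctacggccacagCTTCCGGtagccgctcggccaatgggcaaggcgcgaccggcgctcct
Atp5j2: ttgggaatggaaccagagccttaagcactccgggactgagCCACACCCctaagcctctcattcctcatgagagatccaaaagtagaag
Atp5g2: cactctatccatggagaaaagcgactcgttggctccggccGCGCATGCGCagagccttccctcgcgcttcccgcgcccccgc
Atp5k: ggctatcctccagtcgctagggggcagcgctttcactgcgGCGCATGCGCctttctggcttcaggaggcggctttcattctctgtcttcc
In Atp5g2 and Atp5k the capitals run over 10 bases, since the NRF1 letters match on both strands with an offset of 1 base.

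The first question was whether siKlf4 arrays differed from siControl arrays in the level of these genes. Subunit genes were lower in siKlf4 arrays both without and with TGFβ, and the differences were small. Without TGFβ, 17 of the 79 were called lower and 0 higher at an adjusted p under 0.05 (limma over 19937 genes), beside 9.71% lower and 9.98% higher among all genes. As a share of the subunit genes, the 17 are 21.5%. With TGFβ, 26 (32.9%) were called lower and 1 higher, beside 11.9% and 12.3% of all genes. The median of the 79 log2 differences was −0.18 (no TGFβ) and −0.22 (TGFβ), while over all genes it was 0.0042 and −0.03. Of the 79 differences, 70 (88.6%) lay below 0 without TGFβ and 73 (92.4%) with it, beside 49.1% and 56.5% of all genes.

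In 54 of the 79 genes (68.4%) both siKlf4 arrays lay below both siControl arrays without TGFβ, beside 24.4% of all genes. With TGFβ this held for 61 (77.2%), beside 34.9% of all genes. In both conditions it held for 47 of the 79, and the share of all genes that did so was not counted. The brightness of the probe sets bears on the counts, since 62 of the 79 had a mean log2 value of 8 or more, as did 4704 of all genes. Among those 4704 genes, 17.4% were called lower without TGFβ and 21.5% with it, and among the 62 subunit genes 21.0% and 37.1%. These shares use the calls of the fit over all genes. When only the 4704 genes were fitted, an alternative added after seeing the data, 29 of the 62 (46.8%) were called lower without TGFβ and 40 (64.5%) with it, beside 26.4% and 30.1% of the 4704. The share without TGFβ was thus close to that of the bright genes in the first fit and not in the second. By direction, 90.3% of the 62 lay below 0 without TGFβ and 93.5% with it, beside 50.7% and 48.7% of the 4704. From RNA of whole cultures, fewer cells of a kind and less RNA per cell cannot be told apart. The count of 17 became 8 without siKlf4 replicate 1 and 11 without siControl replicate 1 or 2 or without siControl TGFβ replicate 1 or 2. The count of 26 became 10 to 13 when any array of its own comparison was left out, with the lowest value without siControl TGFβ replicate 2.

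**Figure D1:**
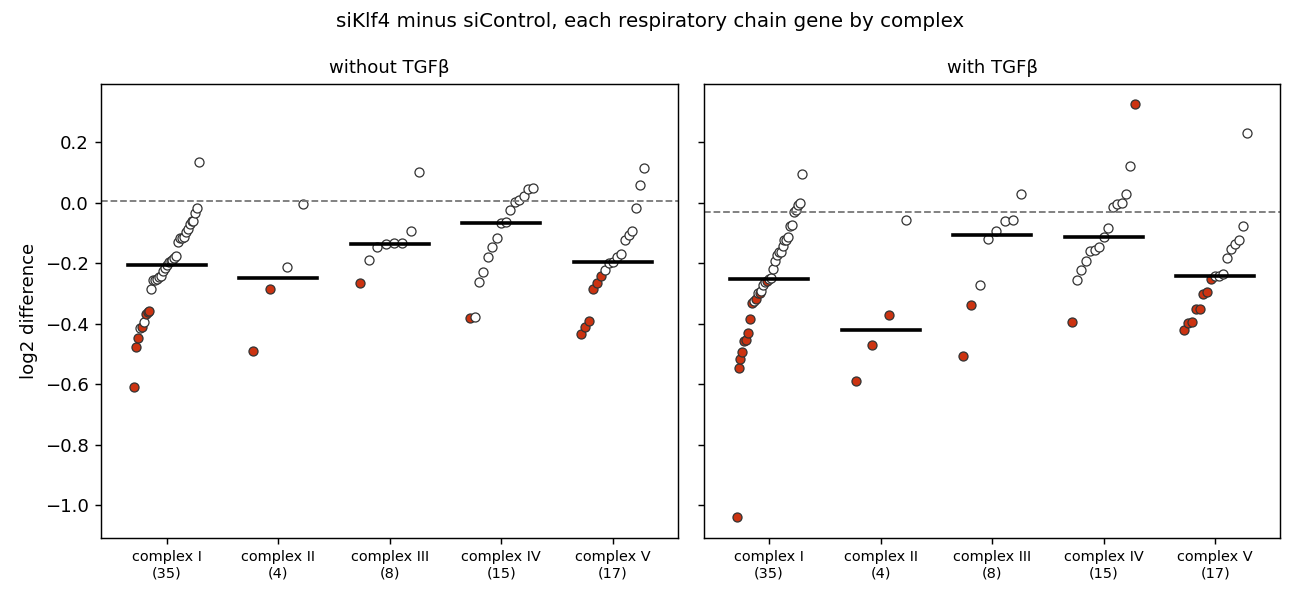
Log2 difference between siKlf4 and siControl arrays (y axis) for each of 79 respiratory chain genes, sorted within its complex (x axis, number of genes in brackets), without TGFβ on the left and with TGFβ on the right. Filled points passed an adjusted p under 0.05, black bars are medians of a complex and the dashed line is the median of all genes. Most points lie below the dashed line, and the lowest, at −1.04 with TGFβ, is Ndufa5.

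By complex, the size of the difference varied. Without TGFβ the medians of the log2 differences were −0.21 for complex I, −0.25 for complex II, −0.14 for complex III, −0.07 for complex IV and −0.20 for complex V. With TGFβ they were −0.25, −0.42, −0.11, −0.11 and −0.24 in the same order. Called lower without TGFβ were 7 of 35 genes of complex I, 2 of 4 of complex II, 1 of 8 of complex III, 1 of 15 of complex IV and 6 of 17 of complex V. With TGFβ the counts were 12, 3, 2, 1 and 8. As shares these are 20%, 50%, 12.5%, 6.67% and 35.3% without TGFβ, beside 9.71% of all genes and 17.4% of the bright genes. With TGFβ they are 34.3%, 75%, 25%, 6.67% and 47.1%, beside 11.9% and 21.5%. Complex IV was the one with a share called lower (6.67% in both conditions) under that of all genes, and 6 of its 15 genes are isoforms usually restricted to muscle, testis or other tissues. Over the other 9 genes the share called lower was 11.1% in both conditions, above that of all genes without TGFβ and below it with TGFβ, and the median was −0.07 and −0.15. The median of all 15 without TGFβ became −0.18 without siKlf4 replicate 2, and with TGFβ it became −0.19 without siKlf4 TGFβ replicate 2 and −0.04 without siControl TGFβ replicate 2 or siKlf4 TGFβ replicate 1. The difference between complexes was not tested.

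Array by array, the median of complex I, with each gene centred on its mean over the 8 arrays, was 0.14 and 0.09 in siControl and −0.09 and −0.07 in siKlf4 arrays without TGFβ. With TGFβ it was 0.10 and 0.13 in siControl and −0.15 and −0.14 in siKlf4 arrays. The groups were apart in both conditions. Complex II gave 0.08 and 0.11 against −0.19 and −0.08 without TGFβ, and 0.17 and 0.23 against −0.20 and −0.16 with it. Complex V gave 0.11 and 0.11 against −0.15 and −0.06, and 0.10 and 0.15 against −0.16 and −0.14. Complex III was closer, at 0.10 and 0.04 against −0.06 and 0.0022 without TGFβ and 0.05 and 0.01 against −0.15 and −0.08 with it. In complex IV siKlf4 replicate 2 (0.02) reached the level of the siControl arrays (0.02 and 0.03), while replicate 1 lay at −0.14, and with TGFβ the values were 0.02 and 0.06 against −0.04 and 0.01. With 2 arrays against 2 an exact permutation test cannot give a two-sided p under 0.333, so no p is given for these medians.

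**Figure D2:**
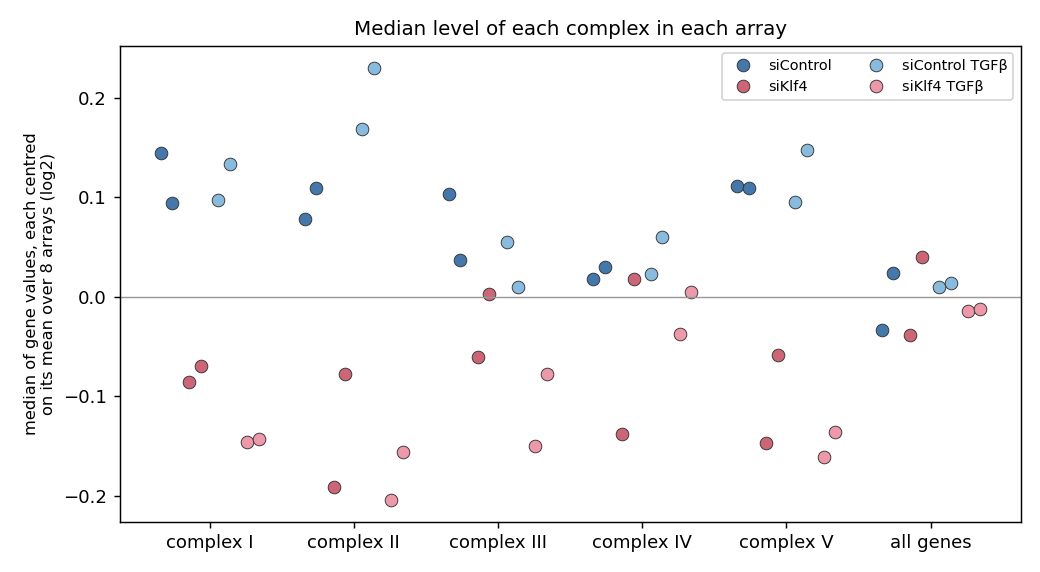
Median over the genes of a complex in each array, after each gene was centred on its mean over the 8 arrays (y axis, log2), for complexes I to V and for all genes (x axis). Colours give the 4 groups and each point is 1 array. In complexes I, II, III and V both siKlf4 arrays lie below both siControl arrays of the same condition, while siKlf4 replicate 2 overlaps siControl in complex IV.

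Complex I takes electrons from NADH at a flavin in Ndufv1 and hands them along iron-sulfur clusters in Ndufv2, Ndufs1, Ndufs8 and Ndufs7 to ubiquinone. Of its 6 measured core subunits, 2 (33.3%) were called lower without TGFβ and 4 (66.7%) with it, and the median log2 difference was −0.23 and −0.31. Called lower among all genes were 9.71% and 11.9%, and among the bright genes 17.4% and 21.5%. Ndufs8 had log2 values of 9.20 and 9.08 in siControl, 8.60 and 8.73 in siKlf4, 9.10 and 9.005 in siControl TGFβ and 8.66 and 8.58 in siKlf4 TGFβ arrays. It was lower in all 4 siKlf4 arrays, by −0.48 ± 0.09 without TGFβ and −0.43 ± 0.09 with it (limma adjusted p = 0.00442 and 0.00632). Ndufs7, the last cluster carrier before ubiquinone, had values of 9.30 and 9.39, 8.92 and 9.03, 9.38 and 9.42, and 8.90 and 8.99 in the same order of groups. Its differences were −0.37 ± 0.08 and −0.46 ± 0.08 (limma adjusted p = 0.0124 and 0.00309), and the groups did not overlap. Ndufs1 and Ndufv1 were called with TGFβ, at −0.30 ± 0.08 and −0.32 ± 0.08 (limma adjusted p = 0.0270 and 0.0175), and had −0.25 and −0.21 without it (limma adjusted p = 0.0637 and 0.120). Ndufs3 (−0.12 and −0.19) and Ndufv2 (−0.06 and −0.25) passed in neither condition. The call of Ndufs7 without TGFβ was lost without siControl replicate 2 or siKlf4 replicate 1, that of Ndufs8 with TGFβ without siControl TGFβ replicate 1 or siKlf4 TGFβ replicate 2, and those of Ndufs1 and Ndufv1 without siControl TGFβ replicate 2 or either siKlf4 TGFβ array, and that of Ndufv1 also without siControl TGFβ replicate 1.

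Among the accessory subunits of complex I, which surround the core and are needed for its assembly and stability, 5 of 27 were called lower without TGFβ and 8 with it, not counting Ndufa4 and Ndufa4l2. These are 18.5% and 29.6%, beside 9.71% and 11.9% of all genes and 17.4% and 21.5% of the bright genes. The share without TGFβ was thus near that of the bright genes. Ndufa5, which sits in the part that binds ubiquinone, differed most of all 79 genes in both conditions. Its log2 values were 8.25 and 8.39 in siControl, 7.66 and 7.76 in siKlf4, 8.43 and 8.42 in siControl TGFβ and 7.46 and 7.32 in siKlf4 TGFβ arrays. No siKlf4 array came near a siControl array. The siKlf4 level was 65.5% of siControl without TGFβ (−0.61 ± 0.09, limma adjusted p = 0.00107) and 48.7% with it (−1.04 ± 0.09, limma adjusted p = 2.85e-05). Ndufa9, an accessory subunit at the joint of the arms of the complex, had 9.64 and 9.67, 9.30 and 9.28, 9.73 and 9.78, and 9.21 and 9.21. It fell by 0.36 ± 0.07 without TGFβ and by 0.55 ± 0.07 with it (limma adjusted p = 0.00735 and 5.32e-04), and replicates lay close together. Ndufb11, of the membrane arm, fell by 0.36 ± 0.08 and 0.52 ± 0.08 (limma adjusted p = 0.00996 and 0.00103), and its second probe set had differences of the same sign. The calls of Ndufa5 and Ndufa9 were kept in every alternative fit, and so was that of Ndufb11 with TGFβ.

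Some accessory subunits were called in one condition. Ndufa6 had values of 8.50 and 8.63 in siControl and 8.19 and 8.05 in siKlf4 arrays (−0.45 ± 0.09, limma adjusted p = 0.00634). With TGFβ it had 8.77 and 8.70 against 8.69 and 8.63 (−0.07 ± 0.09, limma adjusted p = 0.649), so that the siKlf4 TGFβ arrays lay close to siControl. Ndufa2 was likewise called without TGFβ alone (−0.41 ± 0.09, limma adjusted p = 0.0120), with −0.26 with it. Its call was lost without siControl replicate 2 or siKlf4 replicate 1. Called with TGFβ alone were Ndufa1 (−0.49 ± 0.11), Ndufa8 (−0.45 ± 0.08), Ndufa10 (−0.38 ± 0.08), Ndufb6 (−0.33 ± 0.08) and Ndufb7 (−0.26 ± 0.08), with limma adjusted p from 0.00327 for Ndufa8 to 0.0479 for Ndufb7. In the absence of TGFβ these 5 had −0.29, −0.26, −0.18, −0.23 and −0.24, and the siControl and siKlf4 arrays of each did not overlap. Lower siKlf4 groups without overlap were found in 24.4% of all genes without TGFβ. Of the 5 calls, that of Ndufa8 was kept in every alternative fit. Those of Ndufb6 and Ndufb7 were lost without any one array of the comparison, and those of Ndufa1 and Ndufa10 without either siControl TGFβ array or siKlf4 TGFβ replicate 1. Ndufa7 was the one gene of complex I with differences above 0 in both conditions (0.13 and 0.09, limma adjusted p = 0.483 and 0.611).

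Complex II had the largest median difference of the 5 complexes in both conditions, over its 4 genes. Without TGFβ the lead was small, at −0.25 beside −0.21 for complex I. With 1 array left out, the complex II median without TGFβ ran from −0.31 to −0.19. That range overlapped those of complex I (−0.21 to −0.17) and complex V (−0.25 to −0.14). Sdhd, one of the membrane anchors that bind ubiquinone, had log2 values of 9.70 and 9.75 in siControl, 9.19 and 9.28 in siKlf4, 9.58 and 9.60 in siControl TGFβ and 8.98 and 9.02 in siKlf4 TGFβ arrays. The siKlf4 level was 71.3% of siControl without TGFβ and 66.5% with it (−0.49 ± 0.08 and −0.59 ± 0.08, limma adjusted p = 0.00179 and 4.50e-04), and both calls were kept in every alternative fit. Sdhb, the iron-sulfur subunit, had 8.85 and 8.83 against 8.50 and 8.61 without TGFβ and 9.05 and 9.02 against 8.53 and 8.60 with it (−0.28 ± 0.08 and −0.47 ± 0.08, limma adjusted p = 0.0344 and 0.00198). Its call without TGFβ was lost in 7 of the 8 fits that left out 1 array, the exception being siKlf4 replicate 2. Sdha, the flavoprotein that oxidises succinate, was called with TGFβ (−0.37 ± 0.09, limma adjusted p = 0.0110), where the call was lost without siControl TGFβ replicate 2 or either siKlf4 TGFβ array. Without TGFβ it had −0.21 ± 0.09 (limma adjusted p = 0.130). Sdhc, the other membrane anchor, was not called. It had 9.02 and 9.15 against 9.05 and 9.11 without TGFβ and 9.13 and 9.30 against 9.12 and 9.20 with it, with overlapping groups and differences of −0.0047 ± 0.09 and −0.06 ± 0.09.

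**Figure D3:**
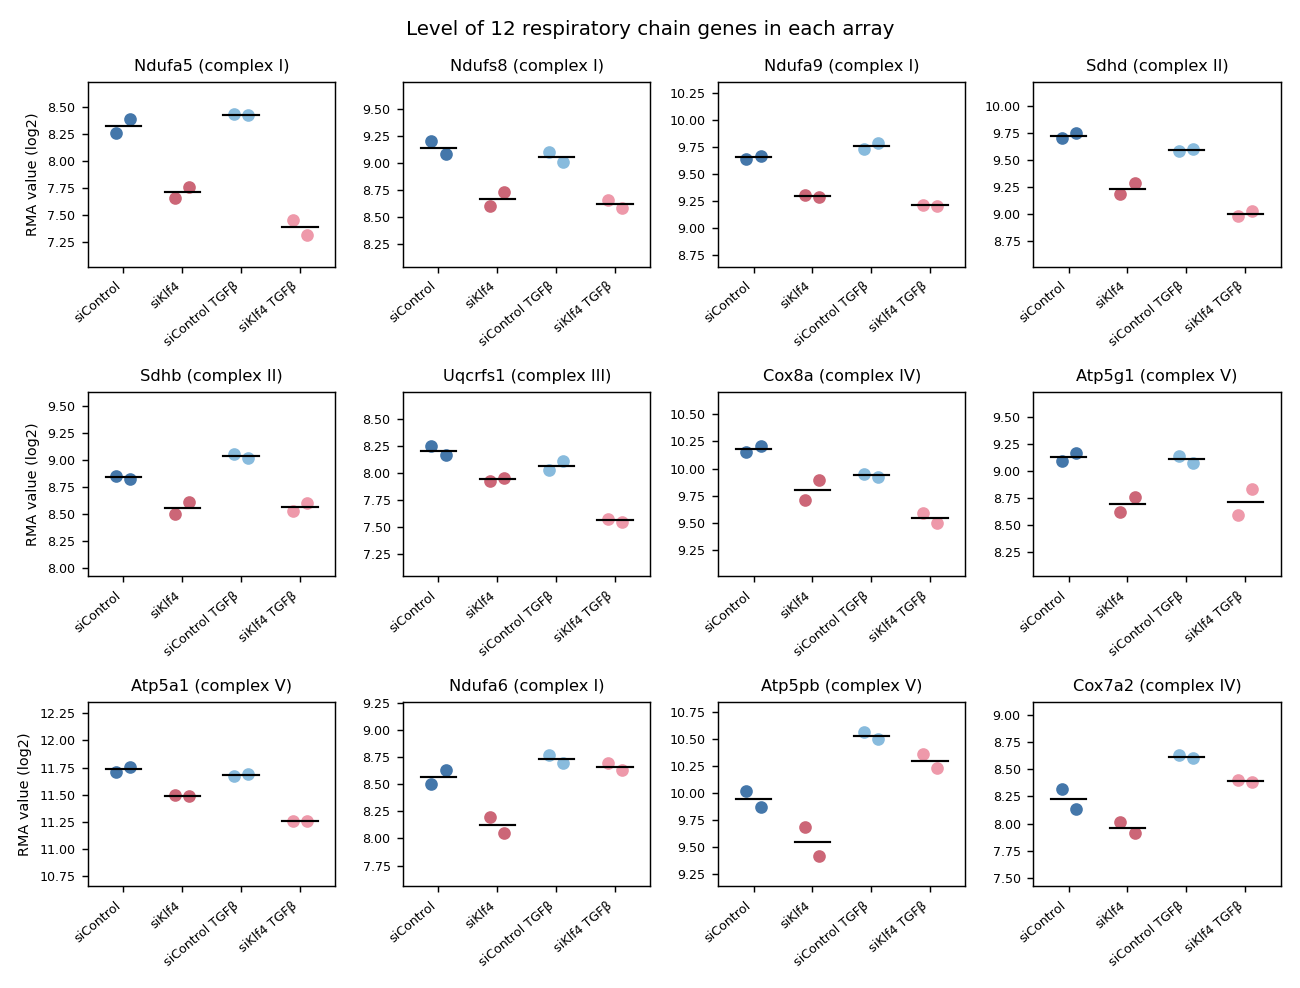
RMA log2 value (y axis, each panel spanning the same range) of 12 respiratory chain genes in the 8 arrays, by group (x axis); points are arrays and lines the means of 2. In the first 9 panels both siKlf4 arrays lie below both siControl arrays in either condition, in Ndufa6 the siKlf4 TGFβ arrays lie close to siControl, and in Atp5pb and Cox7a2 the arrays labelled TGFβ lie higher.

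In complex III, which passes electrons from ubiquinol to cytochrome c, the Rieske iron-sulfur protein Uqcrfs1 was called in both conditions. Its values were 8.24 and 8.17 in siControl, 7.92 and 7.95 in siKlf4, 8.03 and 8.11 in siControl TGFβ and 7.58 and 7.55 in siKlf4 TGFβ arrays. The siKlf4 TGFβ arrays were the lowest and differed from their controls by −0.51 ± 0.08 (limma adjusted p = 0.00113). Without TGFβ the difference was −0.27 ± 0.08 (limma adjusted p = 0.0407), a call that was lost whichever array was left out. Uqcrc2, a core subunit, was called with TGFβ (−0.34 ± 0.08, limma adjusted p = 0.00937), lost without siKlf4 TGFβ replicate 1 or either siControl TGFβ array, and had −0.13 ± 0.08 without it. The other core subunit, Uqcrc1, had 0.10 ± 0.08 and −0.06 ± 0.08 and was not called. Uqcrb has 3 probe sets, of which the brightest gave −0.27 ± 0.11 with TGFβ (limma adjusted p = 0.122). In a fit of every probe set the dimmer ones of Uqcrb were called lower with TGFβ (−0.40 and −0.27, limma adjusted p = 0.00623 and 0.0473). The remaining 4 genes, Uqcr10, Uqcr11, Uqcrh and Uqcrq, had differences between −0.15 and 0.03 and passed in neither condition.

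Complex IV, cytochrome c oxidase, reduces oxygen with a core encoded by mitochondrial DNA, around which the nuclear Cox subunits sit. Cox8a was the one member called lower, in both conditions. It had 10.15 and 10.21 against 9.71 and 9.90 without TGFβ (−0.38 ± 0.09, limma adjusted p = 0.0145) and 9.95 and 9.93 against 9.59 and 9.50 with it (−0.39 ± 0.09, limma adjusted p = 0.00987). The first call was lost without siControl replicate 2 or siKlf4 replicate 1, and the second without siKlf4 TGFβ replicate 2 or either siControl TGFβ array. Cox7a2l, a Cox7a relative that takes part in joining complexes III and IV into supercomplexes, was the one respiratory chain gene called higher. It had 9.28 and 9.42 in siControl TGFβ and 9.69 and 9.66 in siKlf4 TGFβ arrays (0.32 ± 0.10, limma adjusted p = 0.0380), and the call was lost when any of these 4 arrays was left out. Its second probe set was also called higher with TGFβ in a fit of every probe set (0.39, limma adjusted p = 0.0269). Without TGFβ its arrays overlapped (0.04 ± 0.10). Cox5a had 0.02 and 0.12, and Cox5b, its neighbour in the enzyme, had −0.15 and −0.26 (limma adjusted p = 0.312 and 0.0572). Cox6c, Cox7b and Cox6b1 had differences between −0.16 and 0.01 and were not called.

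The paralogues that replace a housekeeping subunit in particular tissues did not pass in any siKlf4 comparison. The mean log2 values over the 8 arrays were 5.61, 6.12 and 4.21 for Cox6a2, Cox7a1 and Cox8b, known from heart and muscle. They were 4.28, 3.14 and 5.30 for Cox6b2, Cox7b2 and Cox8c, and 4.58 for Ndufa4l2, a relative of Ndufa4 known from hypoxia. Ndufa4 itself, whose protein is counted with complex IV although its symbol places it in complex I, had −0.03 ± 0.07 and −0.14 ± 0.07 and was not called. Of their housekeeping partners, Cox8a was called lower, as given above, while Cox6a1 at −0.23 and −0.15 and Cox7a2 at −0.26 and −0.22 were not called. Cox7a2l, called higher with TGFβ, is a relative of Cox7a and is not counted among these partners. The differences of the 7 tissue-restricted genes ran from −0.38 to 0.05 without TGFβ and from −0.19 to 0.03 with it.

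Complex V consists of the catalytic F1 head and the Fo part in the membrane, joined by a central and a peripheral stalk. All 5 genes of the head and central stalk had differences below 0 with groups apart in both conditions. Of all genes, 24.4% had lower siKlf4 groups without overlap in the absence of TGFβ and 34.9% with it. The share of all genes that did so in both conditions was not counted. Called lower were 2 of the 5 without TGFβ and 3 with it, beside 9.71% and 11.9% of all genes. Atp5a1, the α subunit, had 11.71 and 11.76 in siControl, 11.49 and 11.49 in siKlf4, 11.67 and 11.69 in siControl TGFβ and 11.25 and 11.26 in siKlf4 TGFβ arrays. Replicates lay close together, and the differences were −0.24 ± 0.07 and −0.42 ± 0.07 (limma adjusted p = 0.0486 and 0.00243). The first of these calls was lost whichever array was left out, while the second was kept in every alternative fit. Atp5b, the β subunit that carries the catalytic sites with α, had −0.12 ± 0.08 and −0.15 ± 0.08 and was not called. Atp5e, the ε subunit, was called in both conditions (−0.41 ± 0.11 and −0.40 ± 0.11, limma adjusted p = 0.0236 and 0.0228), and the calls were lost without siKlf4 replicate 1 or either siControl array and without any one of the arrays with TGFβ, respectively. Atp5d, the δ subunit, had −0.20 ± 0.08 and −0.24 ± 0.08 and was not called (limma adjusted p = 0.131 and 0.0580). Atp5c1, the γ subunit, was called with TGFβ (−0.25 ± 0.07, limma adjusted p = 0.0380), a call lost when any array of that comparison was left out.

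The c ring, which turns as protons pass, is made from 3 genes that encode the same mature protein. Atp5g1 had 9.09 and 9.16 against 8.62 and 8.76 without TGFβ and 9.14 and 9.07 against 8.59 and 8.83 with it (−0.43 ± 0.10 and −0.40 ± 0.10, limma adjusted p = 0.0139 and 0.0182). A second, dim probe set of Atp5g1 had differences of the opposite sign that were not called (0.12 and 0.33), and with the mean of both probe sets neither call was made. Without TGFβ the call was also lost without siControl replicate 2 or siKlf4 replicate 1, and with TGFβ without siKlf4 TGFβ replicate 1 or either siControl TGFβ array. Atp5g2 was called without TGFβ (−0.26 ± 0.08, limma adjusted p = 0.0431) and had −0.24 ± 0.08 with it (limma adjusted p = 0.0520). Atp5g3 was called with TGFβ (−0.35 ± 0.09, limma adjusted p = 0.0175) and had −0.17 ± 0.09 without it. The Atp5g2 call was lost whichever array was left out, and the Atp5g3 call when any array of its comparison was. That of Atp5g2 was also lost with averaged probe sets, quantile or cyclic loess normalization, array weights, or only the 4 arrays of the comparison. In a fit of every probe set, the dimmer ones of Atp5g2 had 0.02 and −0.21 without TGFβ and −0.37 and −0.26 with it, none called. Retrocopies of such genes can share probes with them, so single values of this family are uncertain.

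Of the peripheral stalk and the small membrane subunits, Atp5o, which ties the stalk to the head, was called in both conditions (−0.29 ± 0.08 and −0.30 ± 0.08, limma adjusted p = 0.0295 and 0.0194). The first call was lost whichever array was left out except siKlf4 replicate 2, and the second without any one array of its comparison. Atp5pb, the b subunit of the stalk, was called without TGFβ (−0.39 ± 0.11, limma adjusted p = 0.0323), a call lost without siControl replicate 1, siKlf4 replicate 2 or either siControl TGFβ array, and had −0.24 ± 0.11 with TGFβ (limma adjusted p = 0.167). In a fit of every probe set, its second one was called lower in both conditions (−0.39 and −0.32, limma adjusted p = 0.00801 and 0.0191). Atp5j2 and Atp5k, small subunits of the membrane part, were called with TGFβ (−0.29 ± 0.09 and −0.35 ± 0.10, limma adjusted p = 0.0338 and 0.0271), both lost without siControl TGFβ replicate 2 or either siKlf4 TGFβ array and Atp5j2 also without siControl TGFβ replicate 1. Atp5h, Atp5j, Atp5l and Atp5mpl passed in neither condition, with differences between −0.22 and 0.06. In a fit of every probe set, a dim one of Atp5h, at a mean log2 value of 4.61, was called higher with TGFβ (0.73, limma adjusted p = 0.00819), opposite to the bright one taken for the gene (−0.14). Atp5md, which helps hold ATP synthase dimers together, had 0.11 ± 0.15 and 0.23 ± 0.15 and was the one gene of complex V above 0 in both conditions.

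Between the conditions, 13 genes were called lower both without and with TGFβ, which is 76.5% of the 17 and 50% of the 26. The same overlap was not counted over all genes, so these shares have no background beside them. The 13 genes are Ndufa5, Ndufa9, Ndufb11, Ndufs7 and Ndufs8 of complex I, Sdhb and Sdhd of complex II, Uqcrfs1 of complex III, Cox8a of complex IV, and Atp5a1, Atp5e, Atp5g1 and Atp5o of complex V. The comparisons share no array but share one estimate of the spread. Whether the siKlf4 difference itself differed between the conditions was tested as an interaction, and 0 of 79 genes were called by limma, beside 1.52% of all genes. At an unadjusted p under 0.05 there were 2, Ndufa5 (−0.43 ± 0.13, limma adjusted p = 0.174), where the difference was larger with TGFβ, and Ndufa6 (0.37 ± 0.13, limma adjusted p = 0.251), where it was smaller. A call in one condition and not in the other is therefore not a shown difference between them.

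The next question was how the arrays labelled TGFβ differed from those without it. Respiratory chain genes differed little, with a median log2 difference of −0.004 in siControl and −0.05 in siKlf4 arrays. In siControl, 2 were called higher and 1 lower, beside 5.81% and 6.65% of all genes. In siKlf4, 3 were called higher and 3 lower, beside 6.01% and 6.87%. Differences lay below 0 for 40 of 79 genes in siControl and 51 of 79 in siKlf4, beside 45.2% and 54.2% of all genes. Among the 4704 bright genes, 12.4% and 14.6% were called lower, and among the 62 bright subunit genes 1.61% in either. The medians by complex lay between −0.04 (complex III) and 0.11 (complex II) in siControl and between −0.11 (complex III) and 0.02 (complex IV) in siKlf4 arrays.

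**Figure D4:**
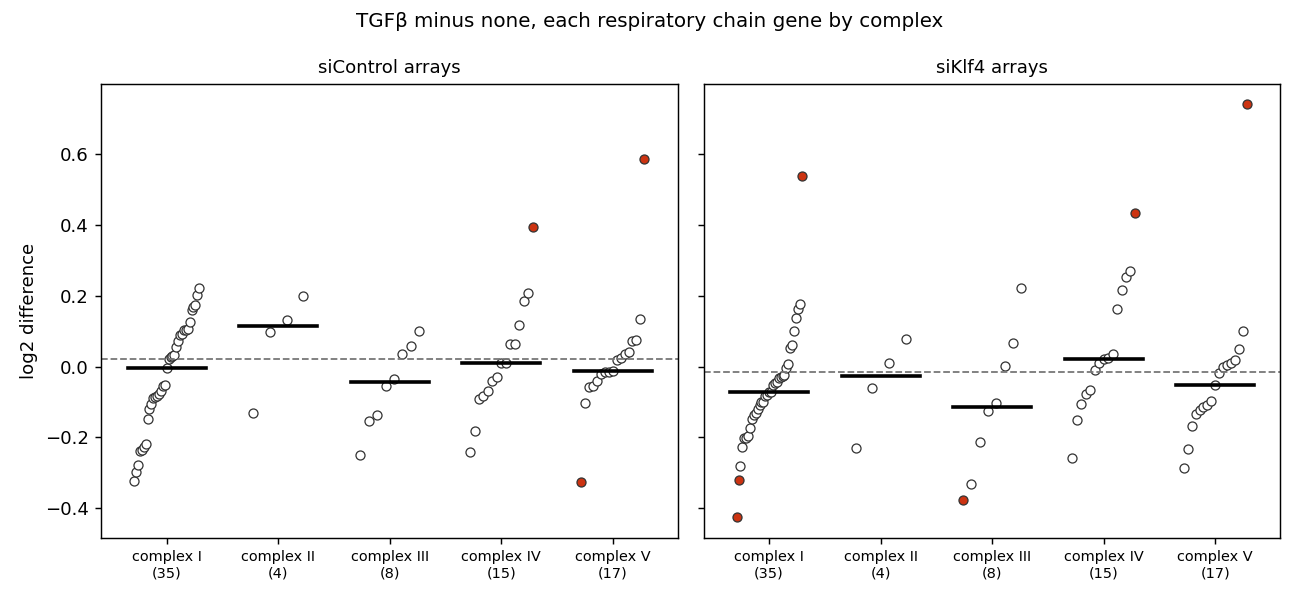
Log2 difference between arrays with and without TGFβ (y axis) for each respiratory chain gene, sorted within its complex (x axis, number of genes in brackets), in siControl arrays on the left and siKlf4 arrays on the right. Filled points passed an adjusted p under 0.05, black bars are medians of a complex and the dashed line is the median of all genes. The points scatter around 0, and the highest, at 0.59 and 0.74, is Atp5pb.

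Atp5pb was the gene that differed most. It had log2 values of 10.01 and 9.87 in siControl, 10.56 and 10.50 in siControl TGFβ, 9.68 and 9.42 in siKlf4 and 10.36 and 10.23 in siKlf4 TGFβ arrays. All 4 arrays labelled TGFβ were above all 4 without it, and it rose by 0.59 ± 0.11 in siControl and 0.74 ± 0.11 in siKlf4 (limma adjusted p = 0.00784 and 0.00206). The siControl call was lost without siControl TGFβ replicate 1, and the siKlf4 call was kept in every alternative fit. Cox7a2, the widely expressed Cox7a isoform, had 8.32 and 8.13, 8.63 and 8.61, 8.01 and 7.91, and 8.40 and 8.39 in the same order. It rose by 0.39 ± 0.09 and 0.43 ± 0.09 (limma adjusted p = 0.0197 and 0.0117), with the first call lost without siControl replicate 2 or either siControl TGFβ array and the second without siKlf4 replicate 2 or either siKlf4 TGFβ array. Ndufa6 was called higher in siKlf4 (0.54 ± 0.09, limma adjusted p = 0.00402), a call kept in every alternative fit, and had 0.17 ± 0.09 in siControl.

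The 4 calls of lower genes with the TGFβ label each depended on single arrays. Atp5mpl, a small ATP synthase subunit, was lower in siControl (−0.33 ± 0.09, limma adjusted p = 0.0487), a call lost whichever array was left out except siControl replicate 1. In siKlf4, Uqcrfs1 (−0.38 ± 0.08, limma adjusted p = 0.0123), Ndufa1 (−0.43 ± 0.11, limma adjusted p = 0.0374) and Ndufa5 (−0.32 ± 0.09, limma adjusted p = 0.0459) were lower. Each of the 3 was lost without siKlf4 replicate 2 or either siKlf4 TGFβ array, Ndufa1 and Ndufa5 also without either siControl TGFβ array, and Ndufa5 also without siKlf4 replicate 1. In siControl Uqcrfs1, Ndufa1 and Ndufa5 had −0.14, −0.22 and 0.11. Over the 4 groups together, 32 of the 79 genes (40.5%) differed by limma's moderated F test, beside 33.3% of all genes.

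The genes that build and supply the chain were read from lists beside it. Mitochondrial ribosomal proteins translate the subunits encoded by mitochondrial DNA. Of 77 measured, 30 (39%) were called lower without TGFβ and 29 (37.7%) with it, 0 higher in either, with medians of −0.23 and −0.22. Lower among all genes were 9.71% and 11.9%, and among the bright genes 17.4% and 21.5%. This list was not split by brightness. The counts of lower genes became 13 without siControl replicate 1 and 16 without siControl TGFβ replicate 2, the lowest values when 1 array was left out. Among them Mrpl18 fell by 0.77 ± 0.07 with TGFβ (limma adjusted p = 5.91e-05) and Mrpl54 by 0.75 ± 0.10 without it (limma adjusted p = 6.15e-04), and both calls were kept in every alternative fit. The 2 measured transcripts of mitochondrial DNA itself, those of ND3 and COX2, had 0.13 and 0.01 without TGFβ and 0.12 and 0.18 with it and were not called. Cyc1, the cytochrome c1 of complex III, was called lower in both conditions (−0.33 ± 0.08 and −0.27 ± 0.08, limma adjusted p = 0.0153 and 0.0299), the one of 6 chain genes left out by spelling to be called. These calls were lost without siControl replicate 1 or siKlf4 replicate 2, and without any one of the arrays with TGFβ.

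Among assembly factors, 8 of 18 for complex IV (44.4%) were called lower without TGFβ and 5 (27.8%) with it, 0 higher, although most complex IV subunits were not called. For this and the next lists, the shares of all genes called lower were 9.71% without TGFβ and 11.9% with it. Coa3, an early factor in Cox1 synthesis, fell by 0.83 ± 0.08 and 0.49 ± 0.08 (limma adjusted p = 9.51e-05 and 0.00159), Cox15, of heme a synthesis, by 0.42 ± 0.08 and 0.54 ± 0.08 (limma adjusted p = 0.00566 and 0.00115), and Cox19 by 0.42 ± 0.11 and 0.62 ± 0.11 (limma adjusted p = 0.0263 and 0.00294). Of 15 complex I factors, 5 (33.3%) were lower and 1 higher in each condition. Ecsit fell by 0.55 ± 0.11 and 0.67 ± 0.11 (limma adjusted p = 0.00542 and 0.00152), whereas Tmem70, which acts in complex I and ATP synthase assembly, rose by 0.47 ± 0.10 and 0.67 ± 0.10 (limma adjusted p = 0.00722 and 7.08e-04). Of 10 factors for complexes II and III, 1 (10%, near the 9.71% of all genes) was lower without TGFβ (Sdhaf1, −0.44 ± 0.09, limma adjusted p = 0.00690), and with TGFβ Uqcc2 was lower (−0.46 ± 0.09, limma adjusted p = 0.00531) and Ttc19 higher (0.30 ± 0.07, limma adjusted p = 0.0147), also shares near those of all genes. The 4 genes listed for complex V are Atpaf1, Atpaf2, Fmc1 and Atpif1, the last an inhibitor of ATP synthase and not an assembly factor. Of these 4, 1 (25%) was lower without TGFβ and 3 (75%) with it, Atpaf2 in both (−0.47 ± 0.10 and −0.46 ± 0.10, limma adjusted p = 0.0104 and 0.00897). Coa3, Cox15, Ecsit, Tmem70 and Sdhaf1 kept these calls in every alternative fit, as Cox19 did with TGFβ. The others were lost without some single arrays, namely Cox19 without TGFβ (siControl replicate 1 or either siKlf4 array), Uqcc2 (siControl TGFβ replicate 1 or siKlf4 TGFβ replicate 2), Ttc19 (any array with TGFβ) and Atpaf2 (replicate 1 of siControl or replicate 2 of siKlf4, and with TGFβ replicate 1 of either). The count of 8 for complex IV became 3 without siKlf4 replicate 1, and that of 5 became 3 without siControl TGFβ replicate 1 or siKlf4 TGFβ replicate 2. For complex I the counts of 5 became 2 without siControl or siKlf4 replicate 1 and 3 without siControl TGFβ replicate 2 or siKlf4 TGFβ replicate 1, and for complex V that of 3 became 0 without replicate 1 of either group with TGFβ.

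**Figure D5:**
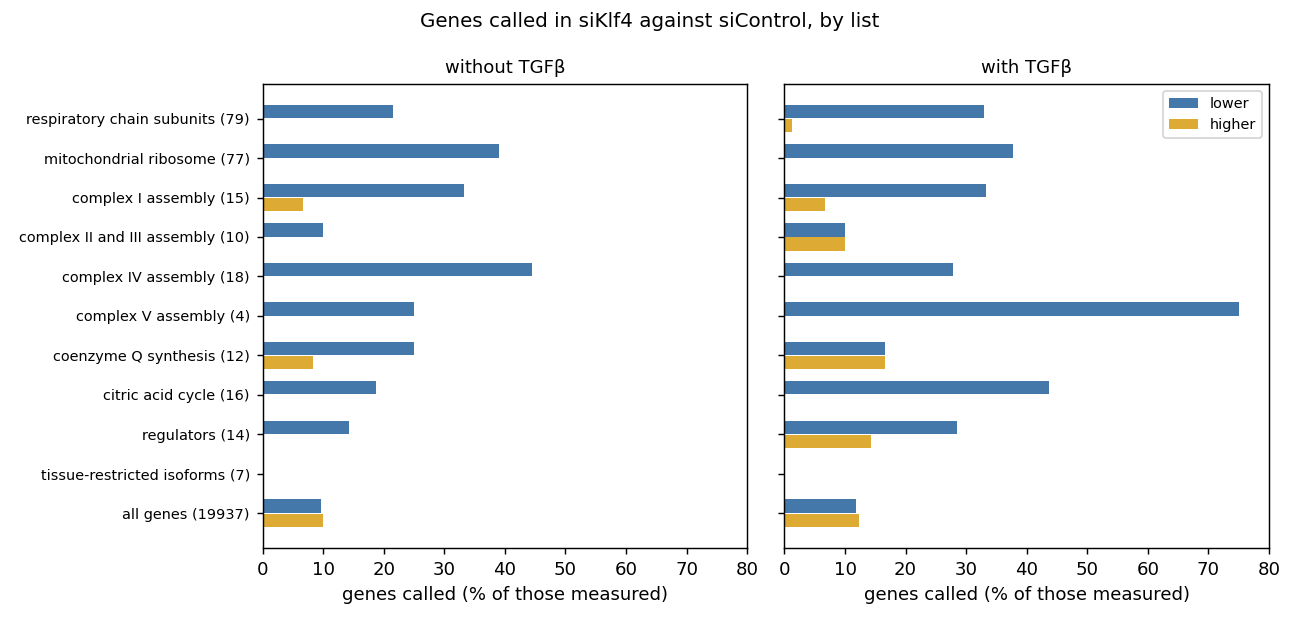
Share of the measured genes of each list (y axis, number of genes in brackets) that was called lower or higher in siKlf4 against siControl arrays (x axis, percent), without TGFβ on the left and with TGFβ on the right. The bars of the mitochondrial ribosome (30 and 29 of 77 lower) are longer than those of all genes, the tissue-restricted isoforms have no call, and lists of 4 to 18 genes move by many percent with each gene.

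Of 16 genes of the citric acid cycle and pyruvate dehydrogenase, 3 (18.8%) were called lower without TGFβ and 7 (43.8%) with it, 0 higher. Lower among all genes were 9.71% and 11.9%, and among the bright genes 17.4% and 21.5%. The share without TGFβ was thus near that of the bright genes. Suclg2, the GTP-forming subunit of succinyl-CoA ligase, fell by 0.62 ± 0.09 and 0.89 ± 0.09 (limma adjusted p = 8.99e-04 and 6.71e-05), and Fh1, fumarase, by 0.62 ± 0.08 with TGFβ (limma adjusted p = 4.25e-04) with −0.25 ± 0.08 without it (limma adjusted p = 0.0634). Citrate synthase, Cs, had −0.08 and −0.14 and was not called. Of 12 genes of coenzyme Q synthesis, 3 were lower and 1 higher without TGFβ and 2 lower and 2 higher with it. The shares with TGFβ, 16.7% in each direction, lay near the 11.9% and 12.3% of all genes. Without TGFβ 25% were lower, beside 9.71% of all genes. Coq6 was lower in both (−0.54 ± 0.09 and −0.40 ± 0.09, limma adjusted p = 0.00198 and 0.00924) and Coq10b, a lipid-binding helper of the chain, higher in both (0.49 ± 0.11 and 0.55 ± 0.11, limma adjusted p = 0.0131 and 0.00598). The calls of Suclg2 and Fh1, and of Coq6 without TGFβ, were kept in every alternative fit. Coq6 with TGFβ was lost without siControl TGFβ replicate 1 or siKlf4 TGFβ replicate 2, and Coq10b without siControl replicate 2 or siKlf4 replicate 1 and, with TGFβ, without siControl TGFβ replicate 2. The count of 3 cycle genes became 1 whichever array was left out, and that of 7 became 5 without any one array with TGFβ. The 2 coenzyme Q genes lower with TGFβ became 0 without siKlf4 TGFβ replicate 2, and the 2 higher became 1 without either siControl TGFβ array or siKlf4 TGFβ replicate 1.

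Of 14 regulators of mitochondrial genes, 2 were called lower without TGFβ, and 4 lower and 2 higher with it. The 14.3% lower without TGFβ and higher with it lay near the 9.71% and 12.3% of all genes, and the medians of the list were −0.0068 and 0.03. Lower with TGFβ were 28.6%, beside 11.9% of all genes. Tfam, which packs and transcribes mitochondrial DNA, fell by 0.42 ± 0.13 and 0.51 ± 0.13 (limma adjusted p = 0.0443 and 0.0156), and Tfb1m, a methyltransferase of mitochondrial ribosomal RNA, by 0.60 ± 0.12 and 0.42 ± 0.12 (limma adjusted p = 0.00528 and 0.0274). Ppargc1a, a coactivator of mitochondrial genes, fell by 0.69 ± 0.14 with TGFβ (limma adjusted p = 0.00463) and had −0.27 ± 0.14 without it. This gene was dim, below the median of each array except siControl TGFβ replicate 2, where it had 5.05. Its difference with TGFβ ran from −0.92 to −0.47 over the alternative fits, so the size of the fall is uncertain. Tfb2m, the partner of the mitochondrial RNA polymerase, rose by 0.76 ± 0.20 with TGFβ (limma adjusted p = 0.0229), as did Twnk, the mitochondrial DNA helicase, by 0.54 ± 0.08 (limma adjusted p = 8.49e-04). Nrf1 had −0.18 ± 0.09 and −0.24 ± 0.09, Gabpa 0.03 ± 0.09 and 0.08 ± 0.09, and Yy1 −0.12 ± 0.08 and 0.01 ± 0.08, and none of these factors was called. Tfb1m without TGFβ, Ppargc1a and Twnk kept their calls in every alternative fit. Tfam without TGFβ was lost without either siControl array, siKlf4 replicate 2 or either siKlf4 TGFβ array, and with TGFβ without siControl TGFβ replicate 1 or either siKlf4 TGFβ array. Tfb1m with TGFβ was lost without any one of those arrays, and Tfb2m without siControl TGFβ replicate 2 or either siKlf4 TGFβ array and also with the trend and robust options. The 4 lower regulators became 1 without siControl TGFβ replicate 1 or either siKlf4 TGFβ array.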

How the data were processed

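Processed values were taken as the authors deposited them, log2 values made by Robust Multi-Array, 1 per probe set and array. The software named in the submitters' notes is oligo 1.14.0, and the log base was read from the range of the values. Of 34760 probe sets, 21640 had 1 symbol in the platform annotation, 1321 had several and 11799 were not listed there. The 79 genes matched RefSeq by Entrez ID, 16 of them with more than 1 probe set. Pseudogenes and retrocopies can share probes with subunit genes.

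Groups were compared with limma 3.58.1 under R 4.3.3, in 1 model of group means fitted to the 8 arrays with eBayes (4 residual and 4.93 prior degrees of freedom) and Benjamini-Hochberg adjustment over 19937 genes. A gene was called at an adjusted p under 0.05. The code was tested on simulated data. Alternatives were a replicate block, the 4 arrays of a comparison alone, eBayes with trend and robust options, array weights, quantile or cyclic loess normalization, omission of the dimmest 30% of genes, averaged probe sets, stricter thresholds (adjusted p under 0.01, or 1.5-fold), a one-way analysis of variance over the 4 groups, and each array left out. A fit of genes with a mean of 8 or more was added after seeing the data.

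The members and lists were chosen with earlier results of these data known. By rule, the text names subunits of the catalytic centres, paralogue sets, the 6 largest calls in each direction and contrast, the largest difference of each complex, up to 4 called genes of every other list with 1 that did not pass, and Klf4. Other subunit genes were named after their values were seen. The number of arrays limits the precision.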

Additional observations from a re-analysis of the deposited data

How the results depend on the processing

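Of the 99 calls of named genes followed, 41 were kept in every alternative fit and none changed sign. Of 229 counts and medians under the alternatives other than leaving out an array, 193 stayed within 1.5 times the count or within the spread between replicates. Some of the 193 could not move. The array weights were equal within each group, so they left every median unchanged. Leaving out the dimmest 30% of genes changed no log2 difference and removed 1 subunit gene, Cox7b2 of complex IV. The medians of the other complexes were thus fixed there too, and the 193 overstates how much was tested. For siKlf4 against siControl without TGFβ the 17 lower genes became 7 with only the 4 arrays of the comparison, 11 with array weights, 31 with trend and robust options, 6 at an adjusted p under 0.01 and 1 at 1.5-fold or more. With TGFβ the 26 became 41 with trend and robust options, 13 at 0.01 and 2 at 1.5-fold, and the 1 higher gene became 0 at 0.01 and at 1.5-fold. For TGFβ in siControl the 2 higher genes became 1 with only 4 arrays, 4 with trend and robust options, and 1 at 0.01 and at 1.5-fold. The 1 lower gene became 0 with only 4 arrays, with quantile or cyclic loess normalization, at 0.01 and at 1.5-fold, and 5 with trend and robust options. For TGFβ in siKlf4 the 3 higher genes became 6 with trend and robust options and 1 at 1.5-fold. The 3 lower genes became 1 with only 4 arrays, 12 with trend and robust options, 5 without the dimmest 30% of genes, and 0 at 0.01 and at 1.5-fold. The fit of 4704 bright genes, chosen after seeing the data, gave 29 lower without TGFβ and 40 with it (26.4% and 30.1% of those genes), 6 higher and 3 lower for TGFβ in siControl, 8 higher and 10 lower in siKlf4, and 1 higher for the interaction. The median of complex V without TGFβ was −0.16 with averaged probe sets (−0.20 before), and that of complex I for TGFβ in siControl was 0.019 after quantile normalization (−0.004 before). By one-way analysis of variance 26 genes differed over the 4 groups in place of 32. The cause was not tested in any of these.

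With 1 array left out, a lone array was assumed to vary like the other groups. The counts without TGFβ ran from 8 to 14 lower, and with TGFβ from 10 to 27 lower and 0 to 1 higher. For TGFβ in siControl they ran from 0 to 2 higher and 0 to 1 lower, and in siKlf4 from 2 to 3 higher and 0 to 4 lower. Medians without TGFβ ran from −0.21 to −0.17 in complex I, −0.31 to −0.19 in II, −0.17 to −0.10 in III, −0.18 to −0.045 in IV (lowest without siKlf4 replicate 2), −0.25 to −0.14 in V and −0.21 to −0.16 over all 79 genes. With TGFβ they ran from −0.26 to −0.20, −0.45 to −0.40, −0.14 to −0.08, −0.19 to −0.037, −0.28 to −0.24 and −0.23 to −0.19 in the same order. For TGFβ in siControl they ran from −0.069 to 0.023, 0.044 to 0.17, −0.08 to −0.0082, −0.02 to 0.04, −0.01 to 0.02 and −0.0059 to 0.01. In siKlf4 they ran from −0.078 to −0.07, −0.086 to 0.035, −0.18 to −0.049, −0.068 to 0.14, −0.10 to −0.004 and −0.077 to −0.0048.

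The replicate numbers of the titles do not pair the arrays by any stated source, and same-numbered arrays had correlated deviations of 0.38 between siControl and siKlf4 and −0.05 to 0.04 otherwise. With the replicate block the counts were 17 lower without TGFβ and 27 lower and 1 higher with it, 2 higher and 1 lower for TGFβ in siControl, and 3 and 3 in siKlf4. Atp5a1 without TGFβ and Ndufa5 for TGFβ in siKlf4 were not called under the block.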
